A study of Homo sapiens with 6 samples.

Results

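Caldesmon, the tropomyosins and their contractile partners are 10 genes whose products sit on actin filaments: CALD1, CNN3, TPM1, TPM2, TPM3, TPM4, MYH9, MYL6, MYL9 and ACTA2. They were found by symbol among the 63299 genes of the deposited count table, and all 10 were present. The set was built around CALD1, selected on its fold change and p between knockdown and control, the 10th smallest p of 21101 genes tested. Its values are therefore a description and carry no test here. The other 9 were taken for their function, with earlier results of these data known. The series sequenced RNA from LNCaP, an established line of androgen-dependent prostate cancer cells, in which a short hairpin RNA lowered MEP50, the WD-repeat partner of the arginine methyltransferase PRMT5. The treated cells were labelled MEP50 KD (Dox+), called knockdown here, and the cells they were set against were labelled No KD (Dox-), called control. Dox is not spelled out in the labels and is read here as doxycycline. There were 3 libraries in each group. No library had the drug without the knockdown, so their effects cannot be told apart.

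In non-muscle cells, tropomyosins wind along actin filaments as coiled coils and decide which other proteins may bind. Caldesmon binds actin, tropomyosin, myosin and calmodulin, and restrains the pull of myosin on the filament until calcium or a kinase releases it. Non-muscle myosin II, which does the pulling, is built of heavy chains, essential light chains and regulatory light chains. Smooth muscle alpha actin and the calponins are known mainly from smooth muscle and stress fibres.

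Caldesmon stood apart from every other gene of the set, with a transcript 3.36-fold lower in knockdown. No tropomyosin, myosin chain or actin of the set passed edgeR's unpaired test with TMM scaling and the filter on low counts. TPM3 passed that test when no such filter was used (adjusted p 0.0209). In the unfiltered fit, however, standard errors hardly differed between abundant genes. They were 0.165 for TPM1, 0.165 for TPM3 and 0.166 for MYL6, beside 0.119, 0.179 and 0.186 in the filtered fit. This limits what any call of the unfiltered fit given below can show. Of the 10 genes, 8 had enough reads to be tested. With edgeR's quasi-likelihood test at an adjusted p under 0.05, 1 of the 8 was called, against 7.6% of all tested genes. That 1 was lower, against a background of 4.88%, and 0 were higher, against 2.72%. Over all tested genes this was 574 higher and 1029 lower, which became 894 higher and 722 lower with upper-quartile scaling. The called gene is CALD1 itself, so the count carries no weight. At an unadjusted p under 0.05, 1 was higher and 2 were lower, beside 10.4% and 14.3% of all tested genes. DESeq2 called 0 higher and 1 lower, beside 4.52% and 7.25%, and limma-voom did the same, beside 2.81% and 4.98%. The library ranges of the groups did not overlap for 4 of the 8, against 30.4% of all tested genes. The median log2 fold change of the 8 was -0.14, beside 0.00 over all tested genes. CALD1, chosen on its difference, is also the 1 lower gene of DESeq2 and of limma-voom. It is among the 2 lower at an unadjusted p, the 4 without overlap and the genes of the median. When replicates of the same number were treated as pairs, 2 were called lower, CALD1 and TPM3, and 1 higher, ACTA2. The backgrounds of the paired fit were 14.9% lower, 11.2% higher and 26.1% in either direction.

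The libraries held 18568002, 36001219 and 20682236 counts for knockdown replicates 1 to 3 and 27509105, 29943841 and 36234784 for control replicates 1 to 3. WDR77, the gene of MEP50, had 12.7 to 15.0 CPM (reads for each 1000000 of a library, scaled by TMM) in knockdown libraries and 36.7 to 49.3 CPM in control libraries (log2 fold change -1.67, SE 0.16, adjusted p 0.00131, edgeR). Luminal markers fixed for LNCaP were abundant in all 6 libraries, with a summed level of 6439 to 6672 CPM in knockdown and 8771 to 10737 CPM in control. Of these 10 markers 4 were called lower in edgeR, against the 4.88% of all genes, and 0 higher, and DESeq2 and limma-voom called as many. At an unadjusted p under 0.05, 6 were lower, against 14.3%, and 0 higher. The paired fit also called 6 lower, against 14.9%, adding FOLH1 and HOXB13, picked out after their values were seen. KLK3, the gene of prostate-specific antigen, fell by 1.48 on the log2 scale (adjusted p 0.0027, edgeR). KLK2, a related kallikrein, fell by 1.01 (adjusted p 0.0205), and KRT18, a luminal keratin, by 0.59 (0.0168). Leaving out 1 library ended the call of KLK2 in 4 of 6 cases (adjusted p up to 0.0827) and that of KRT18 in 5 of 6 (up to 0.0723). TMPRSS2, the other called marker, lost its call in 5 of 6 (up to 0.117). The part of this luminal difference in the results that follow was not tested. The 9 fibroblast markers summed to 12.4 to 17.5 CPM in knockdown and 8.26 to 16.4 CPM in control, with the smallest p for the collagen COL3A1 (log2 fold change 2.05, adjusted p 0.223). COL3A1 was called higher in the paired fit (2.26, adjusted p 0.002), with no filter on low counts and without control replicate 1 (adjusted p 0.0437). It had 14 to 67 reads in knockdown libraries and 29, 1 and 5 in control replicates 1 to 3. Among the smooth muscle markers desmin had 0 reads in all 6 libraries, and the sum of 39.9 to 48.1 CPM in knockdown and 30.4 to 59.9 CPM in control came mostly from SMTN, with 40.1 ± 4.01 CPM in knockdown and 37.1 ± 15.1 CPM in control (SD, n = 3 each). The smooth muscle myosin MYH11 had 2.46 to 3.22 CPM in knockdown and 3.88 to 5.46 CPM in control (log2 fold change -0.63, adjusted p 0.123, and 0.0229 in the paired fit), and shares 765 exonic bases with NDE1 on the other strand. NDE1 had 11.8 to 14.6 CPM in knockdown and 18.6 to 25.4 CPM in control, and was called lower (log2 fold change -0.78, adjusted p 0.0308, edgeR). The part of shared reads in the MYH11 values was not tested.

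**Figure D1:**
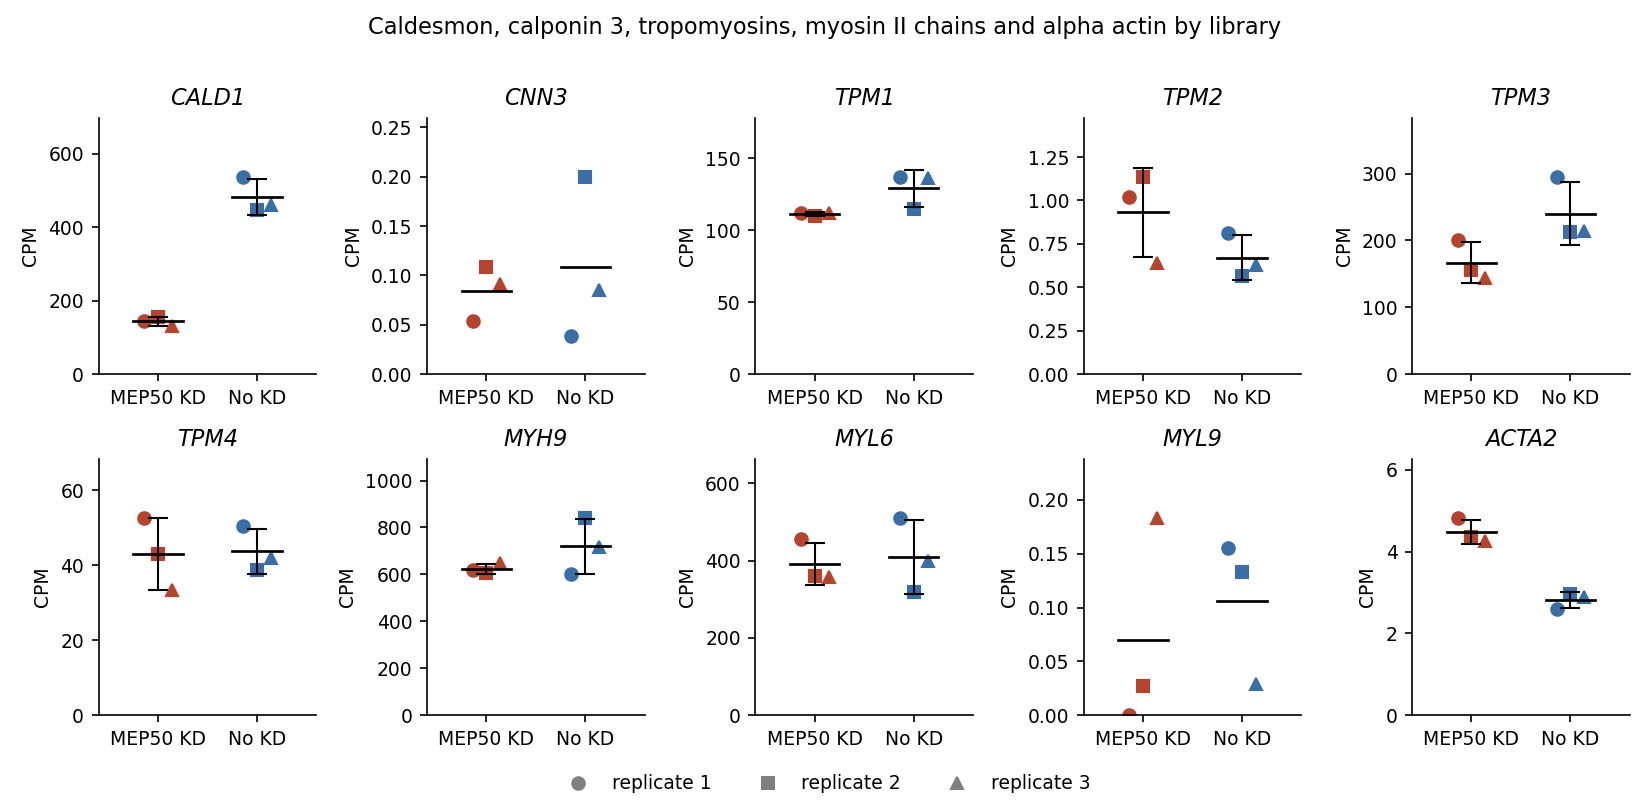
CPM of the 10 genes in each library, MEP50 KD at left and No KD at right, with each axis starting at 0 and scaled to its gene; symbols mark the replicate number, horizontal lines the mean and bars the SD over 3 libraries (no SD is drawn for CNN3 and MYL9, which held 0 to 6 reads a library). CALD1 lies between 131 and 156 CPM in knockdown and between 448 and 537 CPM in control, and ACTA2 is the only other gene with a gap between the groups as wide as its spread.

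CALD1 (ENSG00000122786.19) lies on chromosome 7, from 134744252 to 134970728 on the plus strand of hg38. It had 144, 156 and 131 CPM in knockdown replicates 1 to 3, from 2681, 5776 and 2863 reads. The control replicates had 537, 448 and 461 CPM, from 13849, 13458 and 16160 reads. The highest knockdown library was thus well below the lowest control library. The group means were 144 ± 12.5 CPM in knockdown and 482 ± 48.1 CPM in control (SD, n = 3 each). This is a log2 fold change of -1.75 (SE 0.13). Within the pairs of equal replicate number the log2 ratios of CPM were -1.90, -1.52 and -1.82. Leaving out any 1 library gave log2 fold changes between -1.82 and -1.62. Only 0.455% of the tested genes had a lower fold change.

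CALD1 makes several products, among them the long smooth muscle form and the shorter form of other cells. GENCODE 29 annotates 24 transcripts of it, 11 of them coding, over 26 merged exon blocks. Counts per gene do not separate these products. No exon of another annotated gene overlaps an exon of CALD1, and the table holds 0 processed copies named after it, so its reads have no such neighbour to be shared with. In these bulk libraries, fewer cells with the transcript and less of it per cell cannot be told apart.

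Among the tropomyosins, TPM3 showed the largest difference in reads and was separated by group. TPM3 (ENSG00000143549.19, chromosome 1, from 154155304 to 154194648 on the minus strand) had 201, 155 and 144 CPM in knockdown replicates 1 to 3. The control replicates had 295, 212 and 213 CPM. Replicate 1 was the highest library of its own group in both cases, and every knockdown library was below every control library. On the log2 scale the fold change was -0.53 (SE 0.18, 95% interval -0.93 to -0.12), with an adjusted p of 0.109 in edgeR's quasi-likelihood test. In the paired fit the same gene was called lower (-0.52, SE 0.10, adjusted p 0.00178), as it was with no filter on low counts (adjusted p 0.0209). The 3 pairs gave log2 ratios of -0.55, -0.45 and -0.57. Without control replicate 1 the log2 fold change was -0.31, so that library carried much of the unpaired difference.

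TPM3 has processed copies in the genome that can take up or lend reads. The table holds 8 genes named as its pseudogenes. Their summed reads came to 9.86 to 12.8% of the TPM3 reads in knockdown libraries and 6.7 to 9.47% in control libraries, so they took a larger share where TPM3 was lower. TPM3P9, which held most of these reads, had a log2 fold change of -0.28 (adjusted p 0.385, edgeR). The part of read sharing in the TPM3 values was not tested.

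TPM1 (ENSG00000140416.19, chromosome 15, from 63042632 to 63071915 on the plus strand) had 112, 110 and 112 CPM in knockdown and 137, 114 and 136 CPM in control. The knockdown libraries lay within 3 CPM of each other and just below the lowest control library. Its log2 fold change of -0.21 (SE 0.12, 95% interval -0.48 to 0.06) was not called (adjusted p 0.305, edgeR), nor was it in the paired fit (adjusted p 0.143). TPM1 shares 2070 exonic bases with TPM1-AS and 691 with AC079328.2, both on the other strand. The strand setting of the counting is not given in the sources used here, so reads of these genes may be mixed. TPM1-AS had 20.3 CPM in knockdown replicate 2 and 7.48 to 11.2 CPM in all other libraries, and AC079328.2 had 7.43 to 8.88 CPM in knockdown and 8.66 to 11.2 CPM in control.

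TPM4 (ENSG00000167460.14, chromosome 19, from 16067021 to 16103005 on the plus strand) had 52.6, 43.0 and 33.4 CPM in knockdown and 50.5, 38.6 and 42.0 CPM in control. Both the highest and the lowest library were knockdown ones. Its log2 fold change was close to 0, at -0.02 (SE 0.19, 95% interval -0.44 to 0.40, adjusted p 0.957, edgeR), and turned to 0.13 without knockdown replicate 3 or without control replicate 1. AC008894.3, which shares 829 exonic bases with it on the other strand, had 185 reads in knockdown replicate 2 and 24 to 67 in all other libraries. TPM2, best known as the beta tropomyosin of muscle (ENSG00000198467.13, chromosome 9, from 35681992 to 35691020 on the minus strand), was near the limit of detection, with 14 to 42 reads in knockdown libraries and 17 to 22 in control libraries. Its levels of 0.64 to 1.14 CPM in knockdown and 0.57 to 0.81 CPM in control overlapped (log2 fold change 0.50, SE 0.33, adjusted p 0.399, edgeR).

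Per length, TPM3 made up most of the tropomyosin transcripts in either group. In TPM, the share of length-scaled counts for each 1000000 of a library, TPM3 averaged 57.5 ± 6.65 in knockdown and 82.9 ± 9.91 in control (SD, n = 3 each). TPM1 followed with 26.0 ± 1.78 in knockdown and 30.1 ± 1.51 TPM in control. TPM4 had 16.7 ± 2.66 in knockdown and 17.1 ± 0.93 TPM in control, and TPM2 had 0.66 ± 0.16 TPM in knockdown and 0.48 ± 0.05 TPM in control. TPM3 was thus 55.4 to 59.5% of the summed tropomyosin TPM in knockdown libraries and 60.4 to 66.2% in control libraries, without overlap. TPM4 was 14.6 to 17.6% of the sum in knockdown and 12.8 to 13.4% in control, also without overlap, although its own level did not pass the test. The share of TPM1, 22.2 to 29.1% in knockdown and 20.6 to 25.8% in control, overlapped. The length used is that of all annotated exons of a gene, 12492 bases for TPM1, which lowers the TPM of genes with many rarely used exons.

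The summed tropomyosin level was 101 ± 7.53 TPM in knockdown and 131 ± 9.83 TPM in control (SD, n = 3 each). Because CALD1 was lower by more than the tropomyosins, the balance between the transcripts differed. CALD1 held 0.362, 0.475 and 0.432 TPM for each TPM of tropomyosin in knockdown replicates 1 to 3. In control replicates 1 to 3 it held 1.03, 1.14 and 1.11. The ratio averaged 0.423 ± 0.06 in knockdown and 1.09 ± 0.06 in control. This ratio contains the CALD1 values that brought the set together, and it is given without a test.

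**Figure D2:**
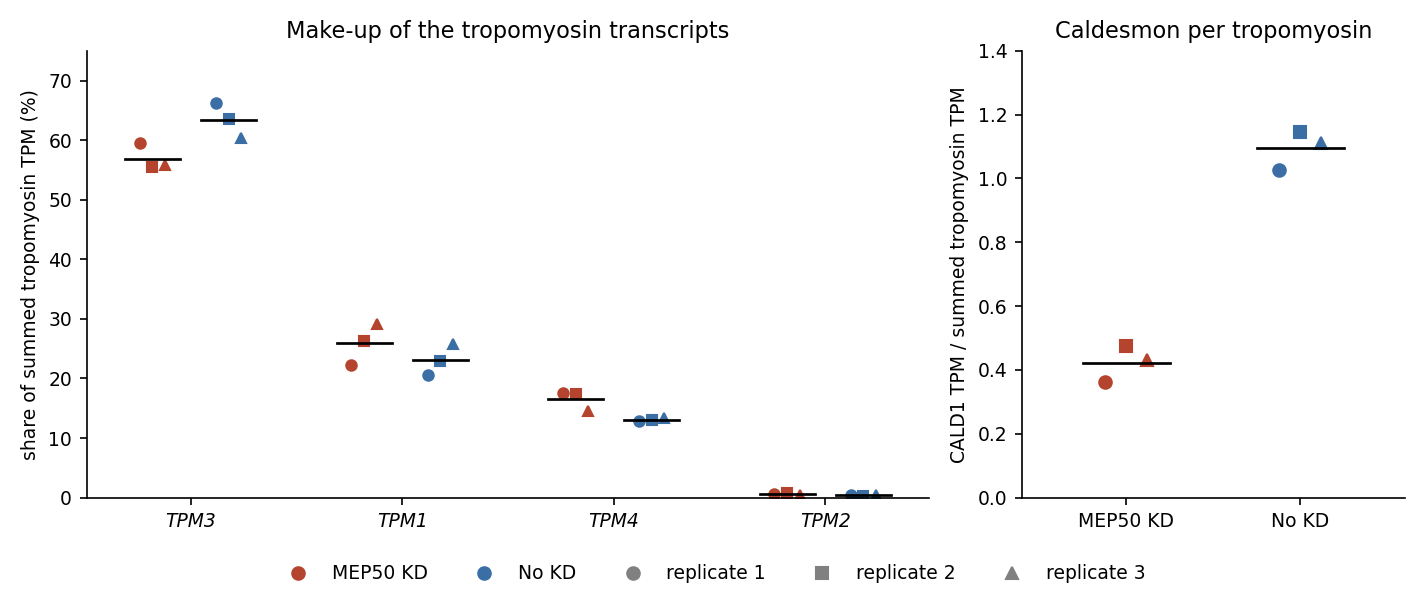
Left, share of each tropomyosin gene in the summed tropomyosin TPM of a library (%); right, CALD1 TPM divided by summed tropomyosin TPM; MEP50 KD is in red and No KD in blue, symbols mark replicates and lines the mean of 3 libraries. TPM3 takes 55.4 to 59.5% in knockdown and 60.4 to 66.2% in control, and the caldesmon ratio is 0.362 to 0.475 in knockdown and 1.03 to 1.14 in control.

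The myosin II chains of the set had similar values in both groups. MYH9, the heavy chain of non-muscle myosin IIA (ENSG00000100345.20, chromosome 22, from 36281281 to 36388018 on the minus strand), had 617, 608 and 647 CPM in knockdown and 604, 840 and 715 CPM in control. The lowest library of all was control replicate 1, so the groups overlapped. Its log2 fold change was -0.21 (SE 0.15, 95% interval -0.54 to 0.13, adjusted p 0.428 in edgeR). MYL6, the essential light chain (ENSG00000092841.18, chromosome 12, from 56158161 to 56163496 on the plus strand), had 455, 359 and 359 CPM in knockdown and 511, 320 and 400 CPM in control. In both groups replicate 1 was the highest library (log2 fold change -0.07, SE 0.19, 95% interval -0.49 to 0.35, adjusted p 0.858, edgeR). MYL6 shares 514 exonic bases with SMARCC2 on the other strand and 89 with its paralogue MYL6B. A further 38 lie in AC034102.5, which had 0.96 to 1.46 CPM in knockdown and 1.17 to 2.34 CPM in control. The intervals of MYH9 and MYL6 reach down to -0.54 and -0.49 on the log2 scale, so equality of the groups was not shown.

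MYL9, the regulatory light chain of smooth muscle (ENSG00000101335.9, chromosome 20, from 36541484 to 36551447 on the plus strand), was almost unread. It had 0, 1 and 4 reads in knockdown replicates 1 to 3 and 4, 4 and 1 in the control replicates. At the depth of knockdown replicate 1 a count of 0 allows a level of up to 0.161 CPM, for counting error only. CNN3, the acidic calponin (ENSG00000117519.15, chromosome 1, from 94896949 to 94927278 on the minus strand), had 1, 4 and 2 reads in knockdown and 1, 6 and 3 in control. Neither gene could be tested, and no fold is given.

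Paralogues outside the set were the more abundant regulatory light chain and calponin transcripts in LNCaP cells. Of the regulatory light chain TPM, MYL12B held 74.4 ± 1.46% in knockdown and 77.1 ± 0.89% in control (SD, n = 3 each), and MYL12A held nearly all of the rest with 25.6 ± 1.48% in knockdown and 22.9 ± 0.88% in control. CNN2 made up 99.4 ± 0.29% of the calponin TPM in knockdown and 99.4 ± 0.39% in control. MYH9 was 61.9 ± 1.51% of the myosin II heavy chain TPM in knockdown and 65.0 ± 2.69% in control, MYH10 being most of the remainder. MYL6 was 87.2 ± 0.67% of the essential light chain TPM in knockdown and 86.7 ± 1.92% in control.

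ACTA2, smooth muscle alpha actin (ENSG00000107796.13, chromosome 10, from 88935074 to 88991339 on the minus strand), was the one gene of the set whose every knockdown library lay above every control library. It had 4.82, 4.35 and 4.26 CPM in knockdown replicates 1 to 3, from 90, 161 and 93 reads. Control replicates had 2.60, 2.96 and 2.88 CPM, from 67, 89 and 101 reads. Its log2 fold change of 0.67 (SE 0.20, 95% interval 0.22 to 1.11) was not called (adjusted p 0.075, edgeR). In the paired fit it was called higher (0.66, SE 0.19, adjusted p 0.0204), and so it was with upper-quartile scaling (adjusted p 0.048). The 3 pairs gave log2 ratios of 0.89, 0.55 and 0.56. ACTA2 was still a trace of the actin made, at 0.166 ± 0.01% of the summed ACTB, ACTG1 and ACTA2 TPM in knockdown and 0.0953 ± 0.0085% in control (SD, n = 3 each).

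ACTA2 shares exonic bases with 2 genes on the other strand, and both were read in these libraries. FAS, a death receptor, shares 380 bases with it and had 17.8 to 22.4 CPM in knockdown and 8.79 to 10.6 CPM in control. FAS was called higher, by 1.08 on the log2 scale (SE 0.17, adjusted p 0.00795, edgeR). Its reads outnumbered those of ACTA2 in every library. ACTA2-AS1 shares 516 bases and had 1.39 to 2.01 CPM in knockdown and 0.892 to 1.20 CPM in control (log2 fold change 0.69, adjusted p 0.157, edgeR). Without a stated strand setting, reads of these genes cannot be told apart where they overlap. Their part in the ACTA2 values was not tested.

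By level per length, the order of the set depended on group at 1 place. In knockdown the order was MYL6 (246 ± 20.8 TPM), MYH9 (203 ± 19.0), TPM3 (57.5 ± 6.65), CALD1 (42.4 ± 3.44), TPM1, TPM4, ACTA2 (4.37 ± 0.09) and TPM2. In control it was MYL6 (257 ± 37.4 TPM), MYH9 (237 ± 59.6), CALD1 (143 ± 4.80), TPM3 (82.9 ± 9.91), TPM1, TPM4, ACTA2 (2.78 ± 0.42) and TPM2. CNN3 and MYL9 came last in both. CALD1 and TPM3 changed places between the groups, and their libraries did not overlap within either group. MYL6 and MYH9 overlapped in control libraries, and CNN3 and MYL9 overlapped in both groups.

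**Figure D3:**
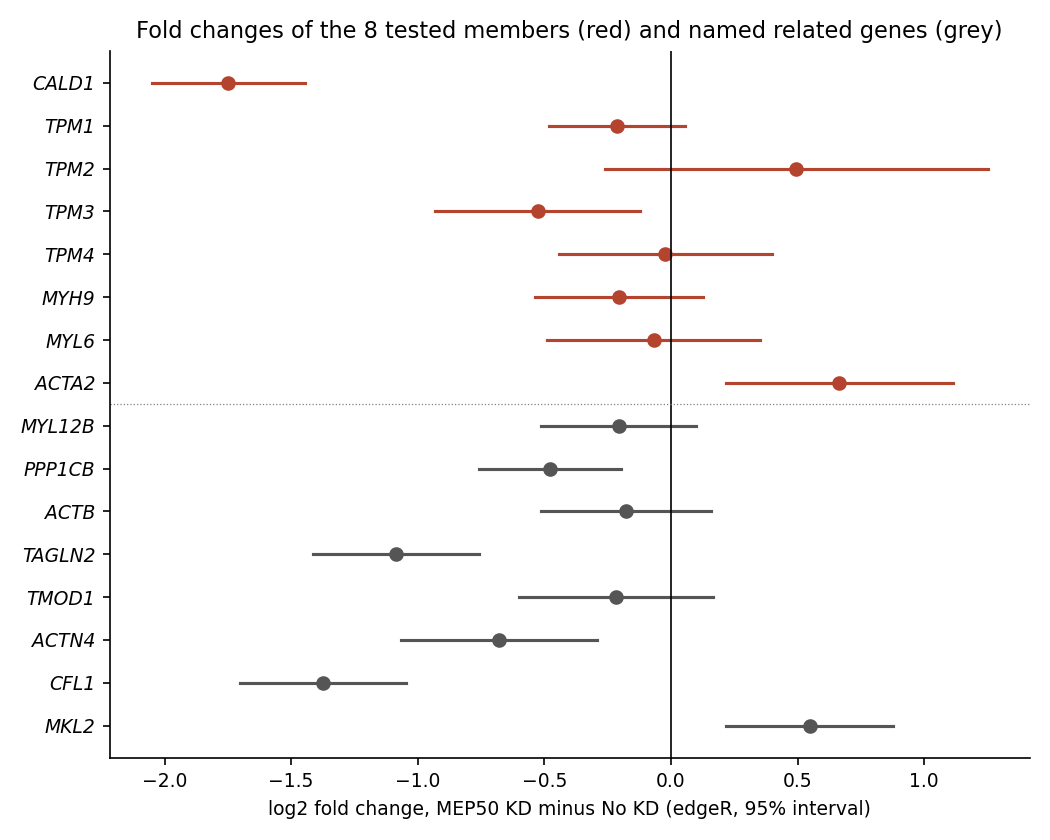
Log2 fold change of MEP50 KD over No KD from edgeR (x axis) with its 95% interval for the 8 tested genes of the set (red, above the dotted line) and for the related genes named in the text (grey). CALD1 lies at -1.75, far from the other red points, which run from -0.53 for TPM3 to 0.67 for ACTA2; among the grey points CFL1 and TAGLN2 lie lowest at -1.37 and -1.09.

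Genes that build, cap, cross-link or regulate the same filaments were taken from 8 lists of 56 genes, of which 47 could be tested. Of these 3 were called lower and 0 higher in edgeR, against the backgrounds of 4.88% and 2.72% given above. At an unadjusted p under 0.05 the counts were 6 lower and 3 higher, beside 14.3% and 10.4% of all tested genes. DESeq2 called 4 lower and 2 higher, beside 7.25% and 4.52%, and limma-voom 4 lower and 1 higher, beside 4.98% and 2.81%. Their median log2 fold change was 0.00, the same to 2 decimals as that of all tested genes. The library ranges did not overlap for 9 of the 47, a share below the 30.4% of all genes. The paired fit called 6 lower and 4 higher, beside its backgrounds of 14.9% and 11.2%.

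CFL1, cofilin, which severs filaments and returns actin to the monomer pool, fell most. It had 249, 189 and 194 CPM in knockdown and 578, 523 and 535 CPM in control, with a wide gap between the groups. This was a log2 fold change of -1.37 (SE 0.14, with an adjusted p of 0.00173 in edgeR), between -1.52 and -1.29 when 1 library was left out. SNX32, on the other strand, shares 357 exonic bases with CFL1, so part of the reads could belong to either. SNX32 had 49.6 to 63.1 CPM in knockdown and 124 to 146 CPM in control (log2 fold change -1.26, adjusted p 0.00177, edgeR). MUS81, also on the other strand, shares 759 bases with CFL1. MUS81 had 32.7 to 37.6 CPM in knockdown and 33.4 to 41.4 CPM in control (log2 fold change -0.08, adjusted p 0.778, edgeR). The muscle-type cofilin CFL2 and destrin, DSTN, did not pass the test, at 0.17 and 0.10 on the log2 scale. Of the 11 turnover and capping genes CFL1 was the only one called in edgeR's unpaired fit with TMM scaling and the filter on low counts. TMSB10, thymosin beta 10, which binds actin monomers, had 193, 90.0 and 94.0 CPM in knockdown and 121, 63.3 and 74.2 CPM in control, with overlap. It was not called in edgeR's unpaired fit (log2 fold change 0.55, SE 0.33, adjusted p 0.342). Without knockdown replicate 1 its log2 fold change fell to 0.09. TMSB10 was called higher with no filter on low counts (adjusted p 0.0229), where its SE was 0.17, and in the paired fit (0.00295).

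TAGLN2, a transgelin related to the calponins, fell as well. It had 53.7, 55.3 and 47.0 CPM in knockdown and 128, 110 and 94.3 CPM in control. Its log2 fold change of -1.09 (SE 0.15) had an adjusted p of 0.00431 in edgeR, and it was called whichever library was left out. Its relatives CNN2 and TAGLN did not pass it, at -0.23 and -0.48 on the log2 scale.

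ACTN4, a non-muscle alpha actinin that cross-links filaments, fell by 0.68 on the log2 scale (SE 0.17, adjusted p 0.0464, edgeR). It had 132, 110 and 136 CPM in knockdown and 194, 249 and 163 CPM in control, where control replicate 2 was high. Without any library other than control replicate 3 its adjusted p lay between 0.0737 and 0.172. It was 0.00512 in the paired fit and 0.0795 with upper-quartile scaling. CAPN12, on the other strand, shares 868 exonic bases with ACTN4. CAPN12 had 4.76 to 5.77 CPM in knockdown and 7.45 to 8.38 CPM in control (log2 fold change -0.61, adjusted p 0.0728, edgeR). The part of shared reads in the ACTN4 values was not tested. Of the 10 cross-linkers and adhesion linkers only ACTN4 was called in edgeR's unpaired fit of all 6 libraries with TMM scaling and the filter on low counts. Filamin A, FLNA, had 471 to 559 CPM in knockdown and 305 to 466 CPM in control (log2 fold change 0.51, adjusted p 0.119, edgeR, and 0.0105 in the paired fit). It was also called higher with no filter on low counts (0.0345) and without control replicate 2 (0.0225).

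No gene of the remaining lists passed edgeR's unpaired test of all 6 libraries with TMM scaling and the filter on low counts. Under other settings 3 did. Of the 5 other myosin II chains MYL12B had the smallest p (log2 fold change -0.21, adjusted p 0.386, edgeR). Of the 10 light chain kinases and phosphatase subunits it was PPP1CB, the catalytic subunit of myosin phosphatase, with 219 ± 14.8 CPM in knockdown and 304 ± 26.6 CPM in control (-0.48, SE 0.12, adjusted p 0.0506, or 0.00744 when paired, edgeR). PPP1CB was also called by DESeq2 (0.0442) and limma-voom (0.0444), with no filter (0.0467) and without control replicate 2 (0.0346). PPP1R12B, a subunit that targets the phosphatase to myosin, was called higher by DESeq2 (0.0343), with upper-quartile scaling (0.034), without control replicate 2 (0.0388) and in the paired fit (0.00502). The other actins were led by ACTB (-0.18, adjusted p 0.504), and the tropomodulins, which cap the slow end of tropomyosin-coated filaments, by TMOD1 (-0.22, adjusted p 0.47). MKL2, now called MRTFB, a coactivator of serum response factor, had 126 to 138 CPM in knockdown and 78.5 to 108 CPM in control. Its log2 fold change of 0.55 (SE 0.15) was not called in edgeR (adjusted p 0.0535), but passed in 7 of 12 alternatives. These were RLE scaling (0.0452), upper-quartile scaling (0.0252), no filter (0.0172), DESeq2 (0.0189), limma-voom (0.0481), the paired fit (0.00385) and without control replicate 2 (0.0217). SRF itself had 28.8 ± 1.76 CPM in knockdown and 26.9 ± 1.68 CPM in control. The 4 related genes called higher in the paired fit were MKL2, FLNA, PPP1R12B and TMSB10, and the 6 called lower were CFL1, TAGLN2, ACTN4, PPP1CB, PFN1 and CAPZA1. PPP1R12B, TMSB10, PFN1, CAPZA1 and FLNA were picked out after their values were seen.

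The genes whose profile over the 6 libraries was most like that of CALD1 lay outside the set. Likeness was the root mean square difference between profiles of log2(CPM + 0.5), each with its own mean removed, among coding genes of at least 1 CPM. The nearest was PLS1, a plastin that bundles actin filaments, at 0.07. It had 5.57, 5.24 and 4.67 CPM in knockdown and 19.3, 17.7 and 18.2 CPM in control. Others among the nearest were the potassium channel subunit KCNS3 at 0.10, and ARL2BP and the lectin MLEC of the endoplasmic reticulum at 0.13 each. The log2 fold changes of these 4 ran from -1.83 for PLS1 to -1.50 for MLEC. Since likeness to CALD1 selects genes with its group difference, these are descriptions.

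**Figure D4:**
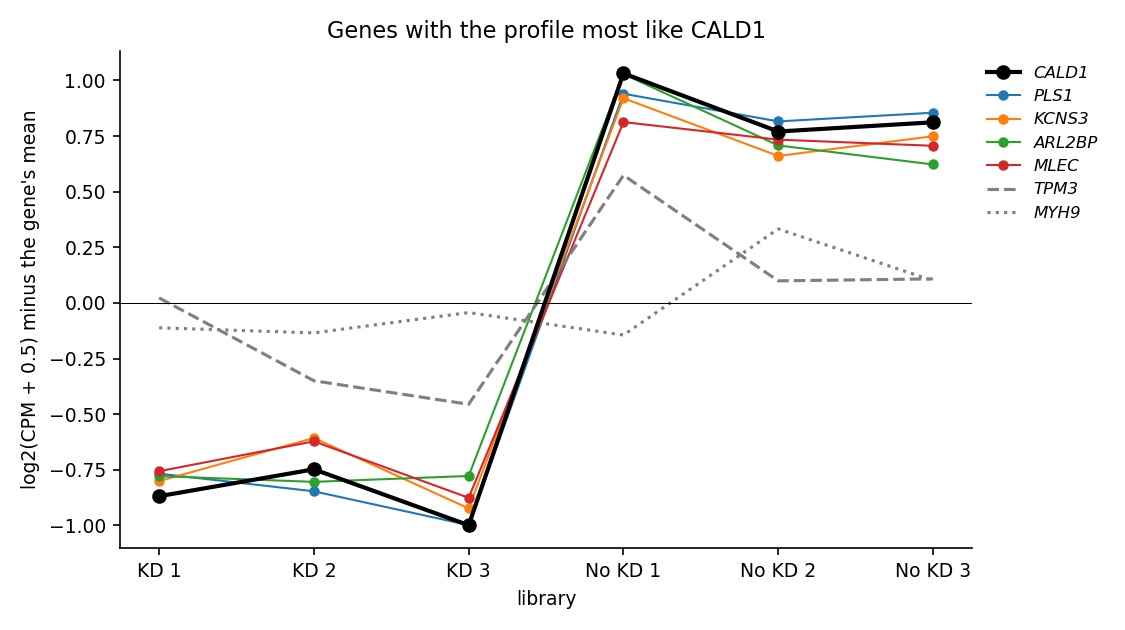
Log2(CPM + 0.5) minus each gene's mean over the 6 libraries (y axis) by library (x axis, MEP50 KD then No KD) for CALD1 in black, 4 of the coding genes most like it in colour, and TPM3 (dashed) and MYH9 (dotted) in grey; lines only join the points of a gene. The 4 genes follow CALD1 within 0.07 to 0.13 root mean square, whereas TPM3 differs less between the groups and MYH9 overlaps.

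The genes of the set were also read for a short word of the 3' untranslated region. The word CTCTGT was searched on the transcript strand of the longest annotated 3' region per gene (GENCODE 29), because an earlier reading of the same fold changes had picked it and the longer ACTCTGT out. Its occurrence therefore supports nothing about these genes. CTCTGT occurs in 46.7% and ACTCTGT in 17.1% of the 19145 genes searched, and every ACTCTGT contains CTCTGT. Of the 10 genes of the set 6 hold CTCTGT and 2 hold ACTCTGT. CALD1 holds CTCTGT at 3 places in 2383 bases, at positions 65, 269 and 2129 of its 3' region, the second of them within ACTCTGT. The CALD1 sites are shown with 8 bases on each side and CTCTGT in capitals, beside the MYL6 site, where the levels of the groups overlapped. The last line is the single ACTCTGT of the WDR77 transcript before its 3' region, with the longer word in capitals, 7 bases before it and 8 after.
CALD1 site 1: ctaattcgCTCTGTtttgtatt
CALD1 site 2: catcataaCTCTGTatctgagc
CALD1 site 3: ctataattCTCTGTtatcttta
MYL6 site: acccaaaaCTCTGTcctctcct
WDR77 site: cacaaggACTCTGTgtttcttt

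TPM1, TPM2, TPM3 and TPM4 hold no CTCTGT in 3' regions of 3493, 716, 2335 and 1694 bases. Among genes with a 3' region within 1.25 times those lengths, 81.4, 33.5, 70.1 and 59.1% hold it. For the length of the CALD1 region the share is 71%. Of the related genes called lower, CFL1 holds the word at 2 places, TAGLN2 at 1 and ACTN4 at 1. For their lengths the shares are 31, 32.3 and 67.2%. Genes of the set that were not called in edgeR's unpaired fit hold it too: MYH9, MYL6 and ACTA2 at 1 place each. CNN3 and MYL9, which could not be tested, hold it at 1 and 2 places. Of the luminal markers searched, KLK3 holds it at 4 places, beside a share of 39.8% for its length. KLK2 and KRT18 lack it, beside shares of 67.5 and 24.3%. MKL2 holds the word at 4 places, beside a share of 93.9% for its length, and had a positive log2 fold change. The sequence of the hairpin is not given in the sources used here, and whether it pairs with any of these sites was not tested.

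Promoters of the set were read from RefSeq (GRCh38.p14, from 250 bases before to 50 after a start), which lists 18 of them for 9 of the 10 genes. They were searched on both strands for the CArG box, the element bound by serum response factor, whose letters read the same on either strand. Only its strict form was counted: CC, then only A or T, then GG, over 10 bases. This form occurs in 1.29% of all 35116 promoters listed. In the set 1 promoter held the strict form, the most upstream start of TPM4, where it begins 173 bases before the start. Near matches were not counted, so a promoter without the strict form may still hold a CArG-like box. The ACTA2 promoter at chr10:88952724-88953023, for example, holds ccctatatgg and ccttgtttgg, each 1 letter off. None of the 4 CALD1 promoters had a match in this window. The TPM4 promoter, chr19:16067288-16067587 on the plus strand, is shown because it is the 1 match, with the box in capitals.
TPM4 promoter: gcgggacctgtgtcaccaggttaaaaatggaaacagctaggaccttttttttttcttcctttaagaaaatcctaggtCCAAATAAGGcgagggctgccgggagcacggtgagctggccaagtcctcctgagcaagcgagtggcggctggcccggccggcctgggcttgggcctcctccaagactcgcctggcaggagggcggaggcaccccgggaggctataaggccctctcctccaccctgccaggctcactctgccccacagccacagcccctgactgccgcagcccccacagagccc
TPM4 itself had overlapping levels in the groups, as given above, and no result here turns on the box.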

How the data were processed

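RNA was sequenced from 3 knockdown and 3 control LNCaP cultures. The deposited values are unnormalized whole-number counts for each gene in each library, beside the gene's length in bases. Per the submitters' processing notes the tools were bcl2fastq, STAR 2.5 with hg38, featureCounts from Subread 1.6.5 and edgeR 3.20.8. Trizol extraction and a TruSeq RNA kit were used, per the labels' protocols. Strand setting and treatment of reads with several matches are not given in the sources used here. The table held 0 entries without a gene name.

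Here the counts were scaled by TMM, filtered with filterByExpr and tested with edgeR 4.0.16 in R 4.3.3 (quasi-likelihood F test, two-sided, Benjamini-Hochberg adjustment over all 21101 tested genes). Fold changes are knockdown over control. The SE is the fold change divided by the square root of F, and intervals use its degrees of freedom. TPM was computed from counts and gene lengths. Alternatives used DESeq2 1.42.0 and limma 3.58.1. The series text calls the replicates biological. Deviations from group means correlated by 0.637, 0.426 and 0.437 between libraries of equal number and by -0.429 to 0.0639 otherwise, so the numbers were taken to pair the libraries. The paired fit is given where it changed a named gene's call or a count of calls. Counts were simulated for knockdown against control over 20664 genes, with no shared effect of replicate number. The changed genes were drawn from the more abundant ones, so genes as weakly read as ACTA2 or TPM2 were not covered. The unpaired test called 68% of genes changed by a log2 of 1 and 100% of those changed by 2. Of its calls 10.2% were unchanged genes. A paired simulation with such an effect, over 20681 genes, called 99% and 100%, with 6.13% of calls unchanged. Each simulation was 1 random draw with only a small share of genes changed. These rates depend on that share, so they need not hold for the real calls.

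The members and the gene lists were chosen with earlier results of these data known. Named genes are the members, up to 3 called genes of each list or otherwise the 1 with the smallest p, WDR77, the 5 nearest profiles (1 of which is not reported here), and genes overlapping or copied from members. Relatives, overlapping partners and members of a list called only in the paired fit that go beyond this rule were named after their values were seen. Gene types, overlaps and 3' regions came from GENCODE 29, which holds 57492 of the 63299 identifiers.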

Additional observations from a re-analysis of the deposited data

How the results depend on the processing

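CFL1, TAGLN2, KLK3 and WDR77 kept their direction and their call under all 12 alternatives each. The 574 genes called higher and 1029 called lower became 894 and 722 with upper-quartile scaling, which raised the median fold change of all genes by 0.12, and 1336 and 1812 with no filter on low counts. In that unfiltered fit the SEs of TPM1, TPM3 and MYL6 were nearly equal, at 0.165 to 0.166, which limits what its calls show. DESeq2 called 898 higher and 1440 lower, and the replicate block called 2358 higher and 3148 lower. Leaving out 1 library gave 168 to 500 higher and 329 to 923 lower.

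The set's 1 lower call became 2 with no filter and with the replicate block, TPM3 being added each time. Its 0 higher calls became 1, ACTA2, with upper-quartile scaling and with the block. Leaving out 1 library gave 1 lower and 0 higher in every case. The 0 related genes called higher became 1 with RLE scaling or limma-voom, 2 with upper-quartile scaling or DESeq2, 3 with no filter, 4 with the block and 0 to 3 without 1 library, the 3 being without control replicate 2. The 3 called lower became 6 with the block and 2 to 3 without 1 library. The log2 fold change of TPM4 turned to 0.095 and that of MYL6 to 0.053 with upper-quartile scaling, both under the shift of all genes. Without 1 library TPM4 ran from -0.20 to 0.13 and MYL6 from -0.24 to 0.16. KRT18 and KLK2 lost their calls without most single libraries, with adjusted p up to 0.0723 and 0.0827. Fewer libraries also give wider errors by construction, and the other causes were not tested. Depth limits CNN3, MYL9 and TPM2, which held at most 42 reads in a library.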
